A study of Mus musculus with 6 samples.

Results

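The genes for cholesterol synthesis, its control, and the uptake, storage and efflux of sterol were examined in adipocytes that floated from inguinal subcutaneous white adipose tissue (scWAT) of newborn mice. The 31 genes were taken by symbol from a fixed list: 19 enzymes of the mevalonate and sterol pathway, 4 genes that control it, 4 genes of intracellular sterol transport and storage, 2 uptake receptors and 2 efflux transporters. All 31 were among the 37384 genes listed, and all 31 were among the 15674 that passed the low-count filter and were tested. The list does not hold every step of the pathway.

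RNA sequencing was performed on 3 libraries of L1L2-FF adipocytes (genotype Lats1 f/f Lats2 f/f) and 3 of L1L2-AKO adipocytes (the same floxed alleles plus Adipoq Cre), all from male mice at postnatal day 7. LATS1 and LATS2 are the kinases of the Hippo pathway that hold the coactivators YAP and TAZ in check, and the study asked what their loss does to fat cells. Each library was a pool of 4 mice, so a value is an average over its pool. The floxed alleles were carried by both groups, and Cre by the L1L2-AKO mice alone, so an effect of Cre itself and of the deletion cannot be told apart. Cre was driven by the adiponectin promoter, which is active in adipocytes, and other cells carried along with the floated fraction can keep both genes. The study cites expression of this Cre in some adipocyte precursors of fetal scWAT, so some of these cells may carry the deletion. In bulk RNA, fewer cells of a type and less RNA per cell cannot be told apart.

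Cells build cholesterol from acetyl-CoA by way of mevalonate, farnesyl pyrophosphate, squalene and lanosterol. The transcription factor SREBP2, escorted by SCAP and held back by the INSIG proteins when sterol is plentiful, switches the enzymes on together, and sterol taken up from lipoproteins switches them off. White adipocytes store much of the body's free cholesterol in and around the lipid droplet, and they both take it up and pass it on to lipoprotein acceptors.

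The libraries held 30548473 to 32107917 counts, and levels are given as CPM, the counts scaled to the size of each library. Where genes are compared with each other, TPM is used, which also divides by the length of the gene's exons. Lats1 fell in the libraries labelled L1L2-AKO, from 82.9 ± 9.90 to 40.2 ± 1.16 CPM (SD, n = 3 each, adjusted p = 0.00131 by the quasi-likelihood test of edgeR, p-values being adjusted by Benjamini-Hochberg over all tested genes). Lats2 went against the label: it was higher, at 119 ± 20.6 against 76.4 ± 8.68 CPM (log2 fold change 0.64, SE 0.156, adjusted p = 0.0278 by the same test). The Lats2 counts can hold reads from outside the deleted part, and 41.2% of its 50-base stretches are shared with an overlapping gene model, Gm49361. The libraries are therefore called "labelled L1L2-AKO" below. By quantitative PCR, the study reported both genes reduced in adipocytes isolated from scWAT of L1L2-AKO mice of the same age. The adipocyte markers Fabp4, Adipoq and Plin1 (a fatty acid carrier, adiponectin and a lipid droplet coat protein) were abundant in both groups, at means of 8164, 2108 and 1493 CPM in L1L2-FF and 6610, 877 and 949 CPM in libraries labelled L1L2-AKO. Adipoq was lower in the latter (adjusted p = 0.0064 by edgeR), and Fabp4 and Plin1 did not pass. Of the other abundant adipocyte markers, Cfd fell from 3718 to 211 CPM (adjusted p = 0.000399 by edgeR). Plin4 was at 2462 and 2463 CPM and did not pass.

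The stretch before the transcription start is shown for 6 enzymes as a description. Background knowledge names 3 kinds of site that SREBP2 targets often carry near the start: the sterol response element, the CCAAT box read by NF-Y and the GC box read by SP1. Each window is the 150 bases before the RefSeq start in GRCm38.p6, 5′ to 3′ on the gene's own strand, with capitals for TCACNCCAC (the sterol element core) and for CCAAT on either strand (ATTGG where it lies on the other). Hmgcs1 lies at chr13:119690201-119690350 on the plus strand and Mvk at chr5:114444119-114444268 on the plus strand. Pmvk is at chr3:89454391-89454540, plus strand, Mvd at chr8:122443423-122443572, minus strand, Nsdhl at chrX:72918371-72918520, plus strand, and Sc5d at chr9:42264301-42264450, minus strand. They were chosen after their values were seen: Hmgcs1 holds the sterol core, and the other 5 had the widest spread among L1L2-FF libraries of the enzymes with a window clear of the gene's annotated exons.
Hmgcs1: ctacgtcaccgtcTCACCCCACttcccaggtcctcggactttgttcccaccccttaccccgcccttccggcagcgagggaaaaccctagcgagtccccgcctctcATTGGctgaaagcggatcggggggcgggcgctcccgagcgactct
Mvk: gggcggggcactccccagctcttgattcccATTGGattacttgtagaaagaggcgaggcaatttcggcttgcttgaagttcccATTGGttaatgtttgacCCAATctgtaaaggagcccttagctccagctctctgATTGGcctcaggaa
Pmvk: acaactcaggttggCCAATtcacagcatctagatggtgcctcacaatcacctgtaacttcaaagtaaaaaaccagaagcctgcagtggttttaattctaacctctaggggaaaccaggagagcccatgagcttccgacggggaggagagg
Mvd: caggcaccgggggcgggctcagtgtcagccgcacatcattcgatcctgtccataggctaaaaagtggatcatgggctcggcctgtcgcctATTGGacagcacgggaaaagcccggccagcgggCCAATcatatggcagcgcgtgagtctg
Nsdhl: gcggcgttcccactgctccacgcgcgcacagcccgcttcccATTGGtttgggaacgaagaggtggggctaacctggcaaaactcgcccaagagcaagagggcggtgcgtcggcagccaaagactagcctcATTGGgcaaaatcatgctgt
Sc5d: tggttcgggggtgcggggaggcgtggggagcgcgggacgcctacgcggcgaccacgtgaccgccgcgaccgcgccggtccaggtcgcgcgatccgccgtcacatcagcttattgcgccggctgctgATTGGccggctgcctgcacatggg

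In capitals, the Hmgcs1 window holds the sterol core and 1 CCAAT box, Mvk holds 4 CCAAT boxes, Mvd and Nsdhl hold 2 each, and Pmvk and Sc5d hold 1 each. RefSeq promoters, from 250 bases before to 50 after the start, were listed for 24 of the 31 genes and for 16 of the 19 enzymes, and the promoter listed at the top was used for each gene. CCAAT, on either strand, was in 14 of the 16 enzyme promoters, against 37.9% of 27025 mouse promoters and 38.3% of the 11441 of tested genes. All 14 had a box within 150 bases before the start. Ggps1 was among them, and its highest and lowest L1L2-FF libraries differed by 1.10-fold. Acat2 and Dhcr7, which differed by 1.88-fold and 3.37-fold, had no box in the promoter used. Another RefSeq promoter of Dhcr7, not used in these counts, held boxes that begin at -85 and -49 from its start. Whether the boxes bear on the spread between libraries was not tested. GGGCGG, the GC box, was also in 14 of the 16, against 35.9% of all promoters and 62.3% of those of tested genes. TCACNCCAC was in 1 of the 16, that of Hmgcs1, against 1.22% of all promoters. GGAATG, the element read by the TEAD partners of YAP and TAZ, was in 0 of the 16 and 1 of the 24, that of Npc2, against 14.6% of all promoters and 12.0% of those of tested genes. None of the searched motifs contains another. These counts describe letters in a window and do not show that a factor binds there, and a missing match says only that these letters are not in the window.

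Between genotypes, 3 of the 31 genes passed the threshold and all 3 were higher in libraries labelled L1L2-AKO: Abcg1, Npc2 and Soat1, which serve sterol efflux, lysosomal export and esterification. Of all 15674 tested genes, 16.5% passed (9.28% higher and 7.18% lower), and 3 of 31 lies near or under these shares. No gene of the list was lower by edgeR, DESeq2 or limma-voom, and 1, Scarb1, was lower at an unadjusted p under 0.05. In either direction 5 of the 31 had such a p by edgeR, beside 4828 of all 15674 tested genes. The fitted change was upward for 22 of the 31 and downward for 9, with a median log2 fold change of 0.28 beside -0.02 over all tested genes. Over all tested genes it was upward for 7512 and downward for 8162. The 31 genes share libraries, so they are not independent measures of direction. In 7 genes all 3 libraries labelled L1L2-AKO lay above the 3 L1L2-FF libraries (18% of all tested genes), and in 0 they all lay below (18.4% of all tested genes).

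**Figure D1:**
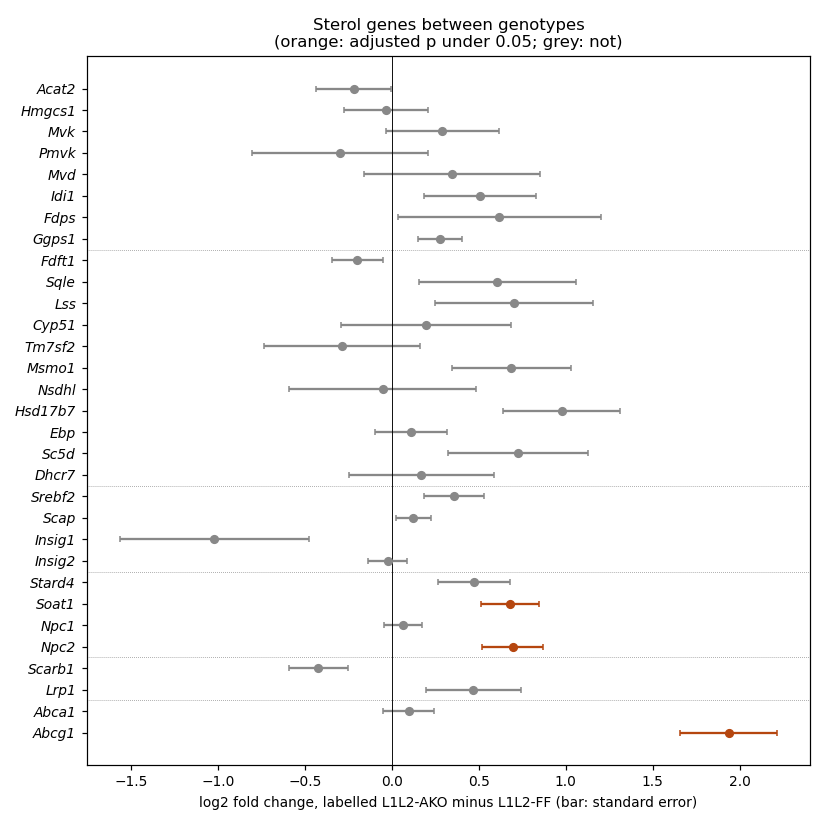
The log2 fold change of each of the 31 genes (horizontal axis, libraries labelled L1L2-AKO minus L1L2-FF) is drawn as a point with its standard error as a bar, in orange where the adjusted p was under 0.05 and grey where not, with dotted lines between the groups of genes by role. Abcg1 stands apart at 1.94, Npc2 and Soat1 sit near 0.7, Insig1 is lowest at -1.02 with a wide bar, and the bars of many enzymes cross 0.

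Of the 19 synthesis enzymes, 0 passed the threshold in either direction by edgeR, beside 16.5% of all tested genes. A miss does not show that levels were equal. At an unadjusted p under 0.05, 1 (Hsd17b7) was higher by edgeR, and 2 each by DESeq2 and limma-voom. Over all 15674 tested genes, 4828 had such a p by edgeR in either direction. At the threshold, DESeq2 called Hsd17b7 and limma-voom called 0. In 2 enzymes (Ggps1 and Hsd17b7) all 3 libraries labelled L1L2-AKO lay above the 3 L1L2-FF libraries (18% of all tested genes). The median log2 fold change of the 19 was 0.28, 13 being fitted higher and 6 lower. Over all tested genes, 7512 were fitted higher and 8162 lower. The control libraries differed widely among themselves. The lowest and the highest L1L2-FF library differed by a median of 3.09-fold over the 19 enzymes, against 1.28-fold in libraries labelled L1L2-AKO. Over all 11033 tested genes with a mean of at least 5 CPM, a minimum set after values were seen, the same medians were 1.28-fold and 1.21-fold. Such a spread was not particular to the sterol enzymes: 10 lipogenic genes spanned a median of 5.32-fold in L1L2-FF.

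In 18 of the 19 enzymes L1L2-FF replicate 2 was below replicate 1 and replicate 1 below replicate 3, an order held by 25.5% of all tested genes. L1L2-FF replicate 2 was the lowest of the 6 libraries in 17 of the 19, against 3204 of all 15674 tested genes. L1L2-FF replicate 3 was the highest of the 6 in 14, against 3336 of all tested genes. All 3 libraries labelled L1L2-AKO lay between the L1L2-FF extremes in 13 enzymes (16.4% of all tested genes). The spread in L1L2-FF was over 2-fold in 14 of the 19 (73.7%) beside 7.25% of the 11033 genes, and in libraries labelled L1L2-AKO in 0 of the 19 beside 4.91%. The 19 enzymes share libraries and a common control, so they are not independent measures of this order, and with 3 libraries a group no test of the spread was made.

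**Figure D2:**
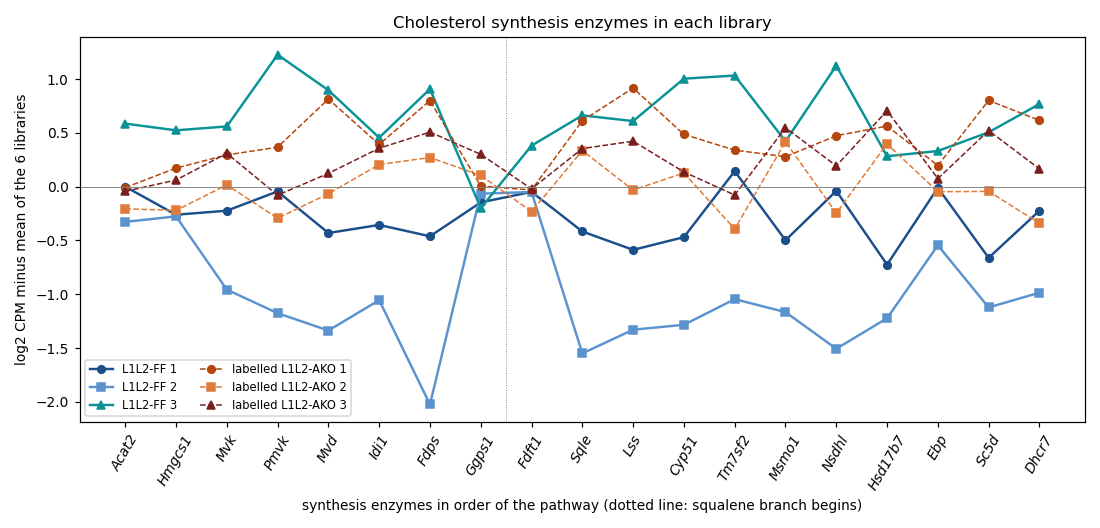
Each line is a library, and the vertical axis gives log2 CPM minus the mean of the 6 libraries for the 19 synthesis enzymes in pathway order, with solid lines for L1L2-FF and dashed lines for libraries labelled L1L2-AKO. L1L2-FF replicate 2 runs lowest and L1L2-FF replicate 3 highest through most of the pathway, the dashed lines lie between them in 13 enzymes, and Ggps1 and Fdft1 are the points where the lines close up.

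In the mevalonate arm of the pathway the largest spread was in Fdps, which makes farnesyl pyrophosphate. Fdps stood at 57.1, 19.3 and 147 CPM in L1L2-FF replicates 1, 2 and 3 and at 137, 94.8 and 112 CPM in libraries labelled L1L2-AKO 1, 2 and 3. The L1L2-FF values spanned 7.63-fold and enclosed all 3 others, and the fitted log2 fold change of 0.62 (SE 0.585) did not pass (adjusted p = 0.534 by edgeR). Its exons share 23.4% of their 50-base stretches with the overlapping model Gm43738, so its level is uncertain.

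Hmgcs1, which condenses acetyl-CoA and acetoacetyl-CoA to HMG-CoA, was the most abundant enzyme per length at 428 ± 129 TPM in L1L2-FF and 448 ± 79.5 TPM in libraries labelled L1L2-AKO (SD, n = 3 each). Its CPM was 547, 542 and 943 in L1L2-FF and 739, 563 and 685 in libraries labelled L1L2-AKO. The groups overlapped, with a log2 fold change of -0.03 (SE 0.241, adjusted p = 0.948 by edgeR). Pmvk, the phosphomevalonate kinase, ranged from 23.9 CPM in L1L2-FF replicate 2 to 126 in replicate 3, and its values of 69.5, 44.0 and 51.0 in libraries labelled L1L2-AKO all fell inside that range. Mvd, which decarboxylates mevalonate pyrophosphate, likewise ranged from 5.88 to 27.6 CPM in L1L2-FF and from 14.2 to 26.1 in the other group. Mvk, the mevalonate kinase, and Idi1, the isopentenyl pyrophosphate isomerase, kept the same order in L1L2-FF, at 32.6, 19.6 and 56.1 CPM and at 28.3, 17.4 and 49.7 CPM. Idi1 shares 17.7% of its 50-base stretches with Gm13502 and is uncertain to that extent.

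Acat2, the cytosolic acetoacetyl-CoA thiolase at the entry to the pathway, spanned 1.88-fold in L1L2-FF and 1.15-fold in libraries labelled L1L2-AKO, and 39.1% of its 50-base stretches are shared with Acat3. Ggps1, which draws farnesyl pyrophosphate off toward geranylgeranyl groups for proteins, did not follow the other enzymes. It was flat in L1L2-FF, at 19.1, 20.2 and 18.4 CPM, and stood at 21.2, 22.7 and 26.0 CPM in libraries labelled L1L2-AKO. All 3 of these lay above L1L2-FF, but the log2 fold change of 0.28 (SE 0.126) did not pass (adjusted p = 0.181 by edgeR).

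From squalene to cholesterol, the largest fitted change among all enzymes was in Hsd17b7, a 3-ketosteroid reductase of the demethylation steps (chr1:169949535-169969241, minus strand, mm10). Hsd17b7 stood at 17.9, 12.7 and 36.0 CPM in L1L2-FF and at 43.7, 39.0 and 48.3 CPM in libraries labelled L1L2-AKO. All 3 of the latter were above the L1L2-FF libraries, though replicate 3 of L1L2-FF came close. The means were 22.2 ± 12.2 and 43.6 ± 4.65 CPM (SD, n = 3 each), and the log2 fold change of 0.98 (SE 0.338) did not pass (adjusted p = 0.0882 by edgeR). It passed with DESeq2 (adjusted p = 0.0232) and without L1L2-FF replicate 3 (log2 fold change 1.51, adjusted p = 0.00487 by edgeR), and without L1L2-FF replicate 2 it was 0.69 (adjusted p = 0.124 by edgeR).

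Msmo1, the sterol C4-methyl oxidase that works beside Hsd17b7, stood at 36.4, 22.9 and 68.9 CPM in L1L2-FF and at 62.3, 68.6 and 75.1 CPM in libraries labelled L1L2-AKO. Nsdhl, the sterol dehydrogenase of the same demethylation complex, had 78.7, 28.5 and 176 CPM in L1L2-FF and 112, 68.3 and 92.5 CPM in the other group. Thus Msmo1 in L1L2-FF replicate 3 fell among the libraries labelled L1L2-AKO, while Nsdhl in that library was above them all, and the log2 fold changes of 0.69 and -0.05 did not pass (adjusted p = 0.222 and 0.961 by edgeR). Sc5d, the lathosterol desaturase, stood at 108, 78.2 and 242 CPM in L1L2-FF and at 297, 165 and 244 CPM in libraries labelled L1L2-AKO. Dhcr7, which completes the sterol ring in the last steps, ranged from 17.9 to 60.2 CPM in L1L2-FF and from 27.9 to 54.2 CPM in the other group.

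Fdft1, the squalene synthase at the branch point, was among the steadiest enzymes, at 62.5, 62.5 and 84.2 CPM in L1L2-FF and 63.3, 55.1 and 63.7 CPM in libraries labelled L1L2-AKO. Its exons overlap those of Ctsb on the opposite strand over 18.3% of their length, and the strand setting of the counting is not given in the sources used here. Sqle, the squalene epoxidase that sets the pace of the late pathway, had 34.9, 15.9 and 73.8 CPM in L1L2-FF and 71.3, 58.8 and 59.6 CPM in libraries labelled L1L2-AKO. Lss, which closes squalene epoxide to lanosterol, had 41.7, 24.9 and 95.5 CPM in L1L2-FF and 118, 61.3 and 83.9 CPM in libraries labelled L1L2-AKO. In both genes L1L2-FF replicates 1 and 2 lay below every library labelled L1L2-AKO and replicate 3 did not, and neither passed (adjusted p = 0.419 for Sqle and 0.349 for Lss by edgeR). Cyp51, the lanosterol demethylase, and Tm7sf2, a sterol C14-reductase, spanned 4.88-fold and 4.22-fold in L1L2-FF and 1.28-fold and 1.66-fold in libraries labelled L1L2-AKO. Ebp, the sterol isomerase, spanned 1.84-fold in L1L2-FF, with the 3 others inside that range.

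The answer for the enzymes depended on which control library was used. Against L1L2-FF replicate 2, 18 to 19 of the 19 enzymes were higher in each library labelled L1L2-AKO, with median log2 ratios from 1.08 to 1.54. Against L1L2-FF replicate 1 it was 12 to 18 of the 19, with medians from 0.25 to 0.75. Against L1L2-FF replicate 3 it was 2 to 4 of the 19, with medians from -0.64 to -0.14. Without L1L2-FF replicate 3, 7 enzymes passed as higher (Cyp51, Hsd17b7, Idi1, Lss, Msmo1, Sc5d and Sqle), and without L1L2-FF replicate 2 the median log2 fold change of the 19 turned to -0.04 and none passed. With both left out, an alternative chosen after seeing the data in which the lone L1L2-FF library is assumed to vary like the other group, 2 passed as higher (Hsd17b7 and Msmo1). The number of all tested genes past the threshold differed between fits with libraries left out, as given below. The counts of enzymes in these fits are therefore not read as results about the enzymes. L1L2-FF replicates 2 and 3 were also the farthest apart on the second principal component of all genes, which held 17.2% of the variance.

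**Figure D3:**
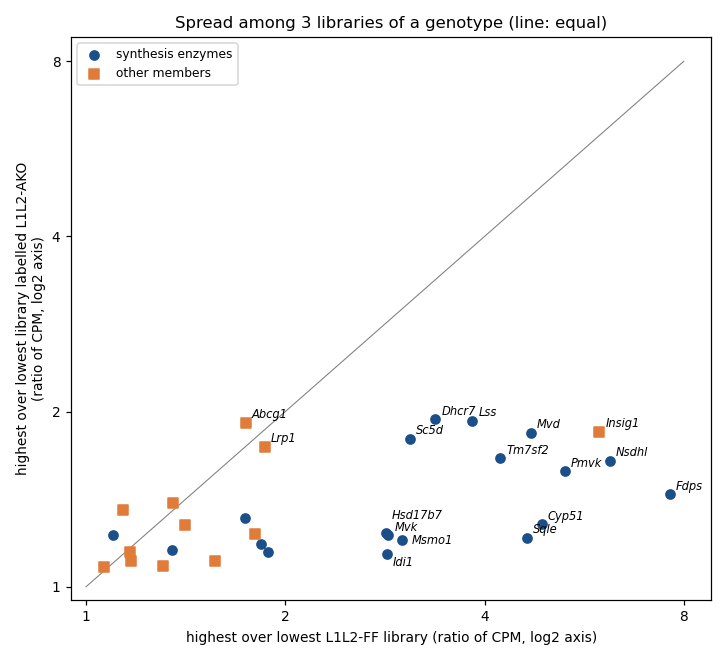
Each point is a gene of the list, with the ratio of the highest to the lowest L1L2-FF library on the horizontal axis and the same ratio in libraries labelled L1L2-AKO on the vertical axis, both on log2 scales, and the line marks equal spread. Of the 19 enzymes (circles), 18 lie below the line, out to Fdps at 7.63, and 8 of the other 12 genes (squares) do so too, with Insig1 at 5.96 and the rest under 2. Over the 11033 tested genes with a mean of at least 5 CPM, 61.9% had the wider spread in L1L2-FF.

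The genes of fatty acid synthesis, which share the SREBP family of activators, were measured beside this spread. The 10 lipogenic genes had a median spread of 2.09-fold in libraries labelled L1L2-AKO, all 10 spanned more in L1L2-FF, where 80% were over 2-fold, and 8 of the 10 kept the order of replicates 2, 1 and 3. Scd1, the stearoyl-CoA desaturase, had 4306, 1940 and 17107 CPM in L1L2-FF and 10427, 4904 and 9982 CPM in libraries labelled L1L2-AKO. Fasn, the fatty acid synthase, had 2512, 366 and 5108 CPM in L1L2-FF and 1442, 336 and 627 CPM in libraries labelled L1L2-AKO. So the L1L2-FF order of both matched that of most enzymes. The mean log2 deviation from the 6-library mean was -0.287, -0.999 and 0.635 in L1L2-FF and 0.42, -0.01 and 0.24 in libraries labelled L1L2-AKO for the sterol enzymes. For the lipogenic genes it was 0.39, -0.71 and 1.54 in L1L2-FF and 0.15, -0.90 and -0.47 in libraries labelled L1L2-AKO. Both lists thus had the same order of libraries within each group, and the lipogenic genes lay lower in libraries labelled L1L2-AKO relative to L1L2-FF than the enzymes did. Of the 10 lipogenic genes 3 were lower (Srebf1, Thrsp and Mlxipl) and 0 higher by edgeR, and DESeq2 and limma-voom gave the same counts, with none higher at an unadjusted p under 0.05. Srebf1 encodes the SREBP1 activator and was at 441 ± 89.0 and 265 ± 30.1 CPM (SD, n = 3 each, log2 fold change -0.73, adjusted p = 0.0267 by edgeR).

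Of the 4 control genes, 0 passed by edgeR, DESeq2 or limma-voom, and 0 had an unadjusted p under 0.05. Over all 15674 tested genes, 16.5% passed by edgeR and 4828 had such a p. Srebf2, which encodes SREBP2, stood at 76.3, 51.6 and 80.9 CPM in L1L2-FF and at 93.8, 84.8 and 88.8 CPM in libraries labelled L1L2-AKO. The latter 3 were all above the L1L2-FF libraries, of which replicate 2 was lowest, as it was in most enzymes (69.6 ± 15.8 against 89.1 ± 4.48 CPM, log2 fold change 0.36, SE 0.170, adjusted p = 0.203 by edgeR). Scap, the escort that carries SREBP2 to the Golgi, stood at 37.4, 35.1 and 36.6 CPM in L1L2-FF and at 39.8, 37.9 and 41.1 CPM in libraries labelled L1L2-AKO. It too did not overlap, by a small step of 0.12 on the log2 scale (SE 0.0996, adjusted p = 0.459 by edgeR).

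Insig1, which holds SCAP in the endoplasmic reticulum and is itself a target of SREBP (chr5:28071363-28078662, plus strand, mm10), was with Hmgcs1 the most abundant gene of the list per length in L1L2-FF, at 434 ± 288 TPM, the means of both being closer than their spread. In libraries labelled L1L2-AKO its 233 ± 77.4 TPM lay below the means of Hmgcs1 and Npc2. Insig1 stood at 506, 130 and 774 CPM in L1L2-FF and at 291, 157 and 247 CPM in libraries labelled L1L2-AKO. L1L2-FF replicate 2 was the lowest of all 6 and the other L1L2-FF libraries the highest, so the groups overlapped through 1 library. The log2 fold change was -1.02 (SE 0.545, adjusted p = 0.252 by edgeR), the largest downward value of the list, and it turned on 2 control libraries. Without L1L2-FF replicate 2 it was -1.47 and passed (adjusted p = 0.0111 by edgeR), and without L1L2-FF replicate 3 it was -0.46 (adjusted p = 0.605 by edgeR). Insig2, its less regulated relative, was flat, at 50.1, 42.9 and 45.3 CPM in L1L2-FF and 46.1, 41.9 and 48.0 CPM in libraries labelled L1L2-AKO (log2 fold change -0.02, SE 0.112, adjusted p = 0.916 by edgeR).

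Insig1 followed the enzymes within each group of libraries but at another height. Its log2 CPM minus the mean log2 CPM of the 19 enzymes was 3.57, 2.32 and 3.26 in L1L2-FF and 2.05, 1.61 and 2.01 in libraries labelled L1L2-AKO. The groups did not overlap on this measure, which was chosen after the values were seen and is given without a test.

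Among the genes of transport and storage, Npc2 and Soat1 rose. Npc2, the soluble lysosomal protein that hands cholesterol to NPC1 (chr12:84754562-84773152, minus strand, mm10), stood at 338, 277 and 375 CPM in L1L2-FF and at 450, 523 and 628 CPM in libraries labelled L1L2-AKO. The groups did not overlap, at 330 ± 49.5 and 534 ± 89.3 CPM (SD, n = 3 each), and the log2 fold change of 0.69 (SE 0.177) passed (adjusted p = 0.0331 by edgeR). That call was lost without L1L2-FF replicate 1 (adjusted p = 0.107), L1L2-FF replicate 2 (0.0594), L1L2-AKO replicate 2 (0.0959) or L1L2-AKO replicate 3 (0.108), and without both L1L2-FF replicates 2 and 3 (0.179), with the log2 fold change between 0.57 and 0.71.

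Soat1, which esterifies cholesterol for storage in droplets (chr1:156424525-156474331, minus strand, mm10), was the lowest of the list per length, at 1.97 ± 0.360 TPM in L1L2-FF and 3.33 ± 0.261 TPM in libraries labelled L1L2-AKO. Its CPM was 6.99, 7.17 and 5.48 in L1L2-FF and 10.1, 11.0 and 10.4 in libraries labelled L1L2-AKO. The groups did not overlap, and the log2 fold change of 0.68 (SE 0.168) passed (adjusted p = 0.0295 by edgeR). It was past the threshold in 10 of 17 alternatives and lost the call with library size alone (adjusted p = 0.0550), with both L1L2-FF replicates 2 and 3 left out (0.152), and without each library except L1L2-FF replicate 2 (0.0578 to 0.11). Its log2 fold change stayed between 0.56 and 0.75 in all 17.

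Npc1, the membrane partner of NPC2 in the lysosome, did not pass, at 49.5 ± 3.85 and 51.8 ± 2.97 CPM (SD, n = 3 each, log2 fold change 0.07, adjusted p = 0.743 by edgeR). Stard4, a soluble carrier that moves cholesterol between membranes and is a target of SREBP2, stood at 42.9, 28.4 and 51.2 CPM in L1L2-FF and at 62.3, 57.2 and 50.6 CPM in libraries labelled L1L2-AKO. Its L1L2-FF order was that of the enzymes, and it did not pass (log2 fold change 0.47, SE 0.206, adjusted p = 0.163 by edgeR).

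For uptake, neither receptor passed by edgeR, DESeq2 or limma-voom. Scarb1, the receptor that takes cholesteryl ester from high-density lipoprotein, stood at 367, 282 and 397 CPM in L1L2-FF and at 302, 237 and 241 CPM in libraries labelled L1L2-AKO. The groups overlapped through L1L2-FF replicate 2, and the log2 fold change was -0.42 (SE 0.171, adjusted p = 0.136 by edgeR). Without that library Scarb1 was lower at -0.56 (adjusted p = 0.0431 by edgeR). Lrp1, a large endocytic receptor for remnant particles and many other ligands, stood at 467, 653 and 350 CPM in L1L2-FF and at 506, 648 and 880 CPM in libraries labelled L1L2-AKO, with overlap (log2 fold change 0.47, SE 0.274, adjusted p = 0.296 by edgeR).

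For efflux, Abcg1 rose and Abca1 did not pass. Abcg1, which exports cholesterol to high-density lipoprotein and is a textbook target of the sterol-sensing LXR receptors (chr17:31057675-31117988, plus strand, mm10), stood at 28.6, 43.0 and 24.7 CPM in L1L2-FF and at 83.3, 125 and 159 CPM in libraries labelled L1L2-AKO. The groups did not overlap, and the lowest library labelled L1L2-AKO was 83.3 CPM beside 43.0 CPM in the highest L1L2-FF library. The means were 32.1 ± 9.63 and 123 ± 38.1 CPM (SD, n = 3 each), a fold change of 3.82 (log2 fold change 1.94, SE 0.280, adjusted p = 0.00342 by edgeR). Abcg1 passed in all 17 alternatives run, with log2 fold changes from 1.71 to 2.20. Abca1, which loads cholesterol onto apolipoprotein A-I and is another LXR target, stood at 313, 309 and 275 CPM in L1L2-FF and at 315, 273 and 370 CPM in libraries labelled L1L2-AKO (log2 fold change 0.10, SE 0.147, adjusted p = 0.717 by edgeR). Its groups overlapped, unlike those of Abcg1. Per length, Abca1 was the higher in both groups, at 84.6 ± 9.15 and 95.3 ± 11.0 TPM, beside 13.0 ± 4.66 and 51.4 ± 12.2 TPM for Abcg1.

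Macrophage markers rose in the same libraries as Abcg1, Npc2 and Soat1. Of 15 macrophage genes, 14 were higher and Mertk did not pass, with a median log2 fold change of 1.48. Over all tested genes, 9.28% were higher. Their summed level was 390, 571 and 297 CPM in L1L2-FF and 1087, 1193 and 1069 CPM in libraries labelled L1L2-AKO, and 0 of the 15 were at or under 1 CPM in every library. The most abundant were Mrc1, the mannose receptor, at 71.5 and 256 CPM on average, Lyz2, a lysozyme, at 71.2 and 151 CPM, and Csf1r, the receptor for macrophage growth factor, at 64.6 and 152 CPM. Within L1L2-FF, replicate 2 had the highest macrophage sum and also the highest Abcg1 and Soat1, but the lowest Npc2. In libraries labelled L1L2-AKO the macrophage sum was highest in replicate 2 and lowest in replicate 3, while Abcg1 and Npc2 were highest in replicate 3 and Soat1 was highest in replicate 2. The part of macrophage RNA in these 3 results was not tested.

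**Figure D4:**
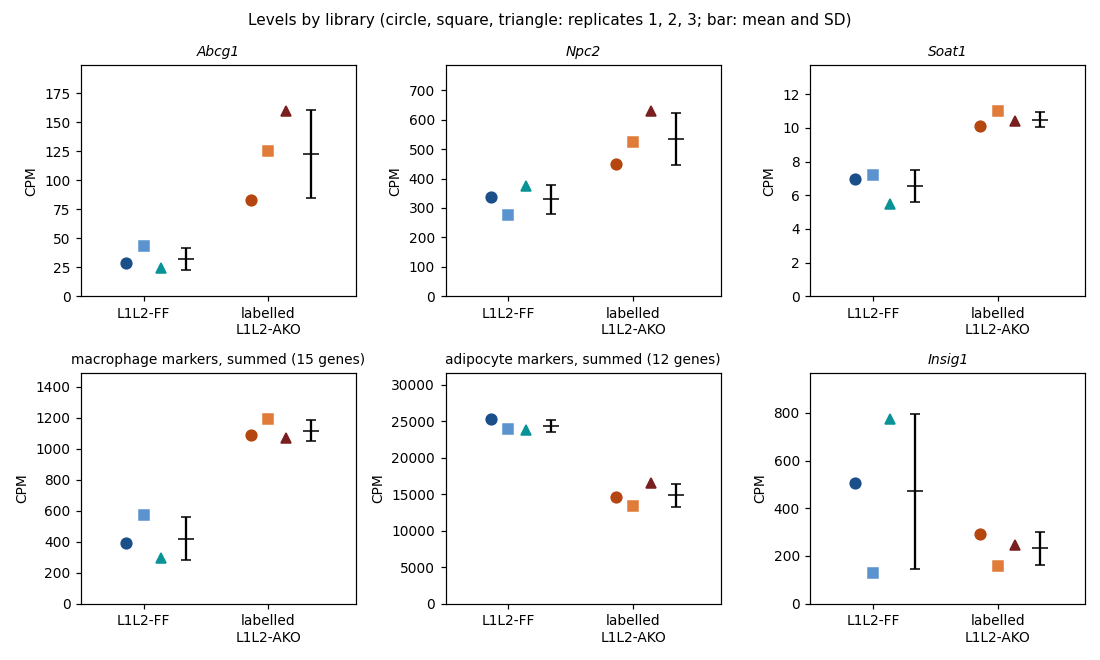
The 6 panels give CPM on a linear axis from 0 for Abcg1, Npc2, Soat1, Insig1 and for the summed macrophage and adipocyte markers, with a circle, square and triangle for replicates 1, 2 and 3 and a bar for the mean and SD of each group. Abcg1, Npc2, Soat1 and the macrophage sum do not overlap between groups and are higher in libraries labelled L1L2-AKO, the adipocyte sum is lower there without overlap, and Insig1 overlaps through L1L2-FF replicate 2.

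Markers of other cell types also moved between the groups. By edgeR, of 12 adipocyte markers 6 were lower and 0 higher (median log2 fold change -0.96), and their summed level was 23744 to 25327 CPM in L1L2-FF and 13409 to 16543 CPM in libraries labelled L1L2-AKO. Of 10 Schwann cell markers 5 were lower and 1 (Pmp22) higher, of 8 mural cell markers 3 were lower and 1 higher, and of 7 progenitor markers 1 was lower, with medians of -1.70, -0.89 and -0.39. Over all tested genes, 9.28% were higher and 7.18% lower, so 1 call in a list of this size is not read as a result. The tools differed on these counts: DESeq2 called 9 adipocyte, 9 Schwann, 5 mural and 2 progenitor markers lower, and limma-voom 6, 3, 3 and 1. The 8 endothelial, 8 lymphocyte, 6 red cell and 5 tested muscle markers had 0 calls by edgeR, with 1, 0, 0 and 2 at an unadjusted p under 0.05 and medians of -0.40, 0.56, -0.21 and -1.20. DESeq2 and limma-voom made 0 calls in the first 3 of these lists, and 2 and 1 calls of lower muscle genes. The part of these shifts in the sterol genes was not tested.

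The other genes of sterol handling were read from a list of 47, all tested, which holds esterases, oxysterol-binding proteins, trafficking and degradation factors. Of these, 8 were higher, 4 lower and 35 did not pass, with a median log2 fold change of 0.02, and 12 of 47 stands beside the 16.5% of all genes called. Those with the largest changes at a mean log2 CPM of at least 2 follow, beside Srebf1 above. Msr1, the scavenger receptor for modified lipoprotein on macrophages, rose from 6.10 ± 0.847 to 19.1 ± 2.86 CPM (SD, n = 3 each, log2 fold change 1.65, adjusted p = 0.00113 by edgeR). Osbpl5, an oxysterol-binding protein relative, rose from 34.1 ± 1.46 to 64.4 ± 11.8 CPM (0.92, adjusted p = 0.00474), and Nus1, a subunit of the enzyme that makes dolichol from farnesyl pyrophosphate, from 130 ± 9.92 to 230 ± 21.0 CPM (0.82, adjusted p = 0.00395). Nceh1, which hydrolyses cholesteryl ester, was higher at 0.80 (adjusted p = 0.0311 by edgeR), and Erlin1, which takes part in the sterol-driven degradation of pathway proteins, at 0.61 (adjusted p = 0.0202). Mylip, the ligase that sends lipoprotein receptors to degradation, fell by 0.83 on the log2 scale (adjusted p = 0.0286 by edgeR), and Gramd1b, which moves cholesterol from the plasma membrane inward, fell by 0.80 (adjusted p = 0.0218). Mylip and Abcg1, which moved in opposite directions, are both known LXR targets, as is Abca1, which did not pass. The part of LXR in these values was not tested.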

How the data were processed

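Adipocytes were floated from collagenase-digested inguinal scWAT, and mRNA was sequenced as paired ends on the BGISEQ-500 in 3 L1L2-FF and 3 L1L2-AKO libraries. Per the study's methods and the submitters' processing notes, the authors aligned reads to mm10 with HISAT2 2.1.0 and used StringTie 1.3.5. The deposited table holds raw counts per gene symbol, and the gene annotation, counting program and strand setting are not given in the sources used here.

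Genes were filtered with filterByExpr (minimum count 10, total 15), leaving 15674 of 37384. Counts were scaled by TMM and tested with edgeR 4.0.16 (quasi-likelihood, genotype only, two-sided, Benjamini-Hochberg over all tested genes, threshold 0.05) in R 4.3.3. The SE is the log2 fold change over the root of F. TPM used exon lengths of the GENCODE vM21 annotation of mm10, and shared 50-base stretches were counted from its transcripts. Scripts were tested on simulated data. Alternatives were other scalings, filters, DESeq2 1.42.0, limma 3.58.1 (voom), a replicate block and leaving out libraries.

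All 31 genes are named. Of the other sterol genes, at most 8 past the threshold are named, by largest change at a mean log2 CPM of at least 2, and of a marker list set beside a result the 3 most abundant. Other names, the promoter windows (for which the rule set earlier would have printed none) and per-library values beyond the called and control genes were chosen after values were seen. The genes and lists were chosen with earlier results of these data known. p-values measure the spread between pools of mice.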

Additional observations from a re-analysis of the deposited data

How the results depend on the processing

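Abcg1 and Lats1 kept their direction and their call in all 17 alternatives, and no gene of the list past the threshold changed sign in any of them. Leaving out 1 library at a time gave 1 to 9 sterol genes past the threshold in place of 3, 1 to 9 higher in place of 3, 0 to 2 lower in place of 0 and 0 to 7 enzymes higher in place of 0, the highest counts without L1L2-FF replicate 3 and the 2 lower genes (Insig1 and Scarb1) without L1L2-FF replicate 2. Over the same fits the enzymes' median log2 fold change ran from -0.04 to 0.76, the other sterol genes past the threshold from 5 to 12 in place of 12, all genes from 1281 to 2845 in place of 2580, and Lats2 from 0.55 to 0.78 with 4 calls lost. The 5 other sterol genes came without L1L2-AKO replicate 2 or 3, and the lowest counts of all genes without L1L2-FF replicate 1 (1290) or L1L2-AKO replicate 2 or 3. Without both L1L2-FF replicates 2 and 3, a setting added after seeing the data, 2 enzymes were higher, 3 other sterol genes and 885 of all genes passed, and Lats2 was 0.67 (adjusted p = 0.155 by edgeR). DESeq2 called 1 enzyme higher. The causes of these changes were not tested.

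Same-numbered libraries deviated from their group means with correlations of 0.19, 0.26 and -0.05, and unlike-numbered ones with -0.32 to 0.21. With 3 libraries a group these values cannot decide whether the numbers pair the samples, and the labels do not say. With the replicate number as a block, 4 sterol genes passed, 1 enzyme (Hsd17b7) was higher, and 2514 of all genes passed. With 3 libraries a group, the fitted change of most enzymes was smaller than the spread of the controls, and a miss does not show that levels were equal. No rescaling moved the median of all genes by over 0.035 on the log2 scale.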
